A study of Mus musculus with 15 samples.

Results

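The 7 genes Ly6d, Gjb5, Bglap2, Trim47, Anxa8, 1700007K13Rik and Acaa1b are described here, out of 36144 genes measured in spinal motor neurons of mice. They were chosen by their TPM in the WT and SMA libraries: they stood at or near 0 in the healthy controls and were clearly present in vehicle-treated mice with spinal muscular atrophy (SMA). The difference between those 6 libraries is therefore given as a description with no test. The stated rule uses none of the remaining 9 libraries, from SMA mice given 1 of 3 compounds, but the genes were picked with earlier results of these data known. TPM, transcripts scaled to a total of 1000000 in each library, correct for transcript length, so that levels of different genes could be set side by side.

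The libraries came from laser-captured motor neurons of lumbar segments L1 to L3, labelled with cholera toxin subunit B, a retrograde tracer, and taken at postnatal day 6. All mice were on the FVB background and carried the human SMN2 and SMNΔ7 transgenes. WT mice were Smn+/+, and mice of the other 4 groups were Smn-/-, so that their SMN protein came from the transgenes alone. WT and SMA mice were given vehicle. The treated groups were SMA+MW150 (5 mg/kg, an inhibitor of the stress kinase p38α), SMA+Pifithrin-α (2.2 mg/kg, an inhibitor of p53) and SMA+SMN-C3 (3 mg/kg, a small molecule that promotes inclusion of exon 7 of SMN2 and so raises functional SMN). Mice were injected into the peritoneum once a day, starting at postnatal day 0. Each group had 3 libraries, which the series calls biological replicates, and libraries are named by group and number, such as SMA 1. The labels give neither the number of mice nor the number of neurons behind a library, and the doses differ between compounds.

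SMN is needed to build the small nuclear ribonucleoproteins that splice RNA. Its loss disturbs splicing of the p53 regulators Mdm2 and Mdm4, and p53, a transcription factor that drives cell cycle arrest and death genes, accumulates in the motor neurons that die first in this mouse. The kinase p38 MAPK can phosphorylate p53. None of the 7 genes is known chiefly for a role in motor neurons. Ly6d is a GPI-anchored surface protein of the Ly6 family, known from lymphoid progenitors and stratified epithelia. Gjb5 encodes the gap junction protein connexin 31.1 of epithelia, and Bglap2 encodes an osteocalcin, a small secreted protein of bone. Trim47 is a RING-type ubiquitin ligase, Anxa8 a calcium-dependent membrane-binding annexin of epithelia, and Acaa1b a peroxisomal thiolase of fatty acid oxidation best known from liver. 1700007K13Rik, also named Pierce1, is a cilium-associated protein first described as induced by p53 in cells that lack the retinoblastoma protein.

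The sequences upstream of the starts were examined because the study acts on p53 and on p38, a kinase that feeds AP-1. RefSeq promoter sequences of the build GRCm38.p6 were at hand for 5 of the 7 genes, all but Ly6d and Bglap2. Windows of 250 bases before the annotated start are printed for 3 of them, 5′ to 3′ on the strand of the gene. Of these, 1700007K13Rik (chr2:28466325-28466574, minus strand) holds a p53 half-site match, and Gjb5 (chr4:127358165-127358414, minus strand) holds the only TATA match. Trim47 (chr11:116110236-116110485, minus strand) is the richest in CpG. Capitals mark motif matches.
1700007K13Rik: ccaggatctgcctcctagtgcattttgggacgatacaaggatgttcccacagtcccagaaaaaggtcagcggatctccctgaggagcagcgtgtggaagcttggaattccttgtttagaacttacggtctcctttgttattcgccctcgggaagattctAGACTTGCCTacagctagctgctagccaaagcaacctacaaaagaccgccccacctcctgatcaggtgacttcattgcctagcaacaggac
Gjb5: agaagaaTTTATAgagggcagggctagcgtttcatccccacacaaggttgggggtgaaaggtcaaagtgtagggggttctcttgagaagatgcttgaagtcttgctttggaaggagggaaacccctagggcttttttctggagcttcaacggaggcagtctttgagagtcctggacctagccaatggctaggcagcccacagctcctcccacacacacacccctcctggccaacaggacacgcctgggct
Trim47: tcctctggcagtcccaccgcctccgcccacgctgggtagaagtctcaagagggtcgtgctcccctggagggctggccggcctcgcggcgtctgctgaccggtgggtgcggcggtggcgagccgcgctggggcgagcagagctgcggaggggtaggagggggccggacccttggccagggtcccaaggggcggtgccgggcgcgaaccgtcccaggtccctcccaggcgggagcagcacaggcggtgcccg

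The 3 motifs were searched on both strands from 250 bases before to 50 after each start. A match to the p53 half-site, a consensus decamer, was found in 1 of the 5 genes, 1700007K13Rik. Its matches were AGACTTGCCT starting 91 bases before the start and GGGCTAGTTT starting at base 31 after it, so they do not adjoin. A half-site match occurred in 8.36% of all 32851 RefSeq promoters of that length. The AP-1 motif TGANTCA had no match in the 5 windows, against 7.81% of all promoters. TATAAA was found in Gjb5 alone, on the opposite strand and 243 bases before the start, against 13.6% of all promoters. The motifs do not overlap in the printed sequences. The upstream window of Trim47 had 75.2% G+C and 25 CG dinucleotides, that of Acaa1b 41.6% and 2, and the median over all promoters was 52.4% and 6. The 5 genes thus shared none of the 3 motifs and spanned CpG-rich and CpG-poor starts.

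Smn1, the deleted gene, lay between 8.97 and 23.3 TPM in WT, and between 0 and 1.498 TPM in the 12 Smn-/- libraries. The depth, estimated from the TPM worth of 1 fragment, ranged from 27.1 M to 80.5 M fragments per library (M, 1000000). At that depth 1 fragment of Ly6d was worth 0.0311 to 0.0845 TPM. All 15 motor neuron markers of the list used were present in every library, at a summed 13960 to 23369 TPM. WT 1 and SMA+Pifithrin-α 3 stood apart with 21.9% and 20.4% of TPM in mitochondrially encoded genes, against 3.76% to 12.6% in the other libraries. As these are bulk samples, fewer cells that express a gene and less RNA of it per cell cannot be told apart.

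Comparisons used limma on log2(TPM+1) over the 15425 genes that reached 1 TPM in 3 or more libraries, and differences are on that scale. All 7 genes passed this filter, 6 of them only through the Smn-/- groups. Calls were made at 0.05 on the p-value adjusted by Benjamini-Hochberg over the genes of a comparison. A comparison with SMA reuses the libraries in which the genes were chosen as high, which favours a fall. In comparisons between 2 treated groups the difference uses neither group of the rule, but the SE pools the spread of all groups, WT and SMA included. The WT libraries, chosen as low, were all listed at 0 for Ly6d, Gjb5, Bglap2 and Anxa8 and added no spread there. These tests are therefore not independent of the rule. The 3 comparisons with SMA share the SMA libraries, and each pair of comparisons between treated groups shares 1 group.

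For all 7 genes every SMA library lay above every WT library, as the choice requires (so did 14.5% of tested genes). With SMN-C3, the 7 genes were at 0% to 20.95% of their SMA mean (median 5.24%). With Pifithrin-α they were at 11.3% to 52.0% (median 28.1%), and with MW150 at 32.9% to 68.5% (median 59.2%). These shares rest in part on SMA 1, the highest SMA library for 6 of the 7. Without SMA 1 the medians were 9.47%, 44.5% and 77.1%, and with MW150 Gjb5 was at 110.2% and Bglap2 at 101% of the SMA mean. The sign of the MW150 difference from SMA also turned without SMA 1 for Ly6d (0.15), Gjb5 (0.16) and Bglap2 (0.26). A set of 4 genes, Ly6d, Gjb5, Bglap2 and 1700007K13Rik, was called lower with SMN-C3 against SMA (0.0648% of tested genes were called lower). The choice of the genes as high in SMA favours such calls. Their count became 0 without SMA 1, without SMA 2 and with only the 2 groups fitted. With Pifithrin-α or MW150 against SMA, limma called 0 of the 7. Between treated groups, Ly6d alone was called, and it was lower with SMN-C3 than with MW150.

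**Figure D1:**
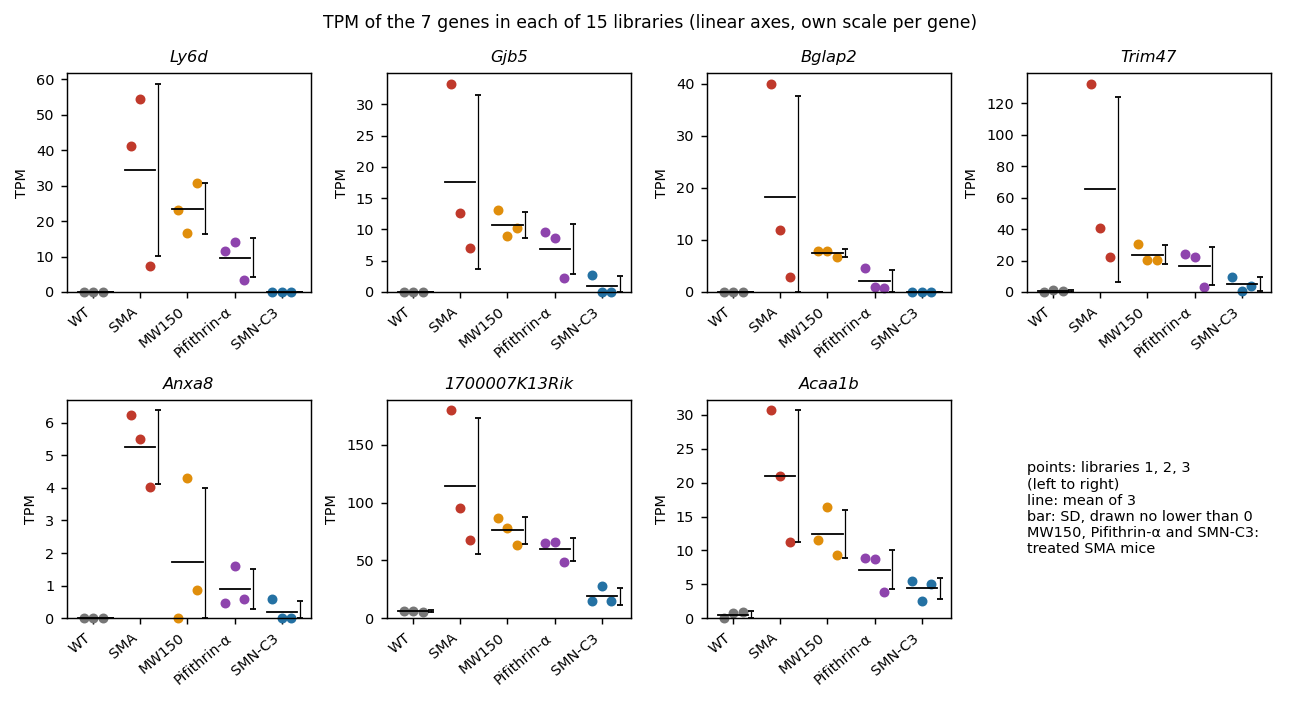
TPM of the 7 genes in the 15 libraries, with 1 panel per gene and its own linear axis. Points are libraries, lines the means of 3 and bars the SD. WT points lie at or near 0 in all panels but that of 1700007K13Rik, where they lie between 5.11 and 6.47 TPM, and SMA 3 is the lowest SMA library in all 7.

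Among the surface proteins, Ly6d (ENSMUSG00000034634.7; GRCm38 chromosome 15, 74762056 to 74763620, minus strand; 1 coding transcript of 3 exons) was listed at 0 in the 3 WT libraries. It was at 41.3, 54.6 and 7.31 TPM in SMA 1, 2 and 3 (34.4 ± 24.4, SD, n = 3), which is about 94.3 to 675 fragments. MW150 libraries held 23.1, 16.6 and 30.9 TPM, inside the range of the SMA libraries. Pifithrin-α libraries held 11.5, 14.0013 and 3.41 TPM, below all MW150 libraries but overlapping SMA through SMA 3. Ly6d was listed at 0 in all 3 SMN-C3 libraries, which include the deepest of the experiment.

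The difference of SMN-C3 from SMA for Ly6d was -4.75 (SE 0.58, limma adjusted p 0.0025). It missed the threshold without SMA 1 (adjusted p 0.066), without SMA 2 (0.064) and with only the 2 groups fitted (0.18). The difference from MW150, between groups the rule does not use, was -4.58 (95% interval -5.80 to -3.35, limma adjusted p 0.0083), with the spread pooled over all groups. Since all SMN-C3 values are 0, its size is set by the pseudocount, and it was -7.84 with a pseudocount of 0.1. Ly6d was the 1 gene called in that comparison over all tested genes (0.00648% called lower). The call was lost without SMA+MW150 3 (adjusted p 0.11), SMA+SMN-C3 1 (0.072) or SMA+SMN-C3 3 (0.075). All 3 SMN-C3 libraries were listed at 0 while the lowest MW150 library was at 16.6 TPM. SMN-C3 against Pifithrin-α gave -3.23 (interval -4.46 to -2.00) and was not called (limma adjusted p 0.20), though the libraries did not overlap. MW150 differed from SMA by -0.18 (interval -1.40 to 1.05).

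Gjb5 (ENSMUSG00000042357.2; chromosome 4, 127354809 to 127358181, minus strand; 1 coding transcript of 2 exons) was also listed at 0 in WT. It was at 33.3, 12.6 and 6.96 TPM in SMA, at 13.1, 8.99 and 10.2 TPM with MW150 and at 9.67, 8.61 and 2.25 TPM with Pifithrin-α. These 3 groups overlapped one another. With SMN-C3 it was at 2.77 TPM in library 1 and listed at 0 in libraries 2 and 3, below all SMA and MW150 libraries. Gjb5 fell by 3.31 against SMA (SE 0.59, limma adjusted p 0.049), close to the threshold. The call was lost without SMA 1 (0.15), SMA 2 (0.14), SMA+SMN-C3 2 (0.30) or SMA+SMN-C3 3 (0.27), with a pseudocount of 0.1 (0.073, where the difference was -5.56), with no filter on low values (0.17), with a filter at a mean of 5 TPM (0.11) and with only the 2 groups fitted (0.20). Over the alternatives other than leaving out 1 library, the limma adjusted p ranged from 0.0013 to 0.20. Against MW150 the difference of -2.90 (interval -4.14 to -1.66) was not called (limma adjusted p 0.11).

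Bglap2 (ENSMUSG00000074486.2; chromosome 3, 88377736 to 88378699, minus strand; 1 coding transcript of 4 exons) was the secreted product of the set. It was listed at 0 in WT and in all SMN-C3 libraries. SMA 1, 2 and 3 held 40.04, 11.9 and 2.88 TPM. It was at 7.89, 7.97 and 6.67 TPM with MW150, with little spread, and at 4.57, 0.964 and 0.667 TPM with Pifithrin-α. The Pifithrin-α libraries lay below all MW150 libraries, and the SMN-C3 libraries below all Pifithrin-α libraries. Bglap2 fell by 3.67 with SMN-C3 against SMA (SE 0.62, limma adjusted p 0.035). With single libraries left out, that call held without SMA 3 (adjusted p 0.0021) and was lost without SMA 1 (0.094), SMA 2 (0.14), SMA+SMN-C3 1 (0.13), SMA+SMN-C3 2 (0.15) and SMA+SMN-C3 3 (0.14). It was also lost with no filter on low values (0.15), with a filter at a mean of 5 TPM (0.11) and with only the 2 groups fitted (0.20).

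The value of Bglap2 is uncertain because of near-identical neighbours. Of its 441 words of 31 bases, 420 (95.2%) also occur in transcripts of Bglap or Bglap3. Bglap, the adjacent osteocalcin gene, was listed at 0 in WT too, while SMA libraries held 23.5, 1.67 and 5.59 TPM, so that the split between the 2 genes moved from library to library. Their sum was at 63.5, 13.6 and 8.48 TPM in SMA, between 9.25 and 11.5 TPM with MW150, between 0.667 and 5.70 TPM with Pifithrin-α and between 0 and 0.661 TPM with SMN-C3. The sum differed by -4.13 between SMN-C3 and SMA (limma adjusted p 0.0096) and by -3.26 between SMN-C3 and MW150 (0.063), where the alternatives tried for Bglap2 gave adjusted p of 0.0037 to 0.20 and 7.8e-04 to 0.23. Bglap3 did not share the pattern, with 2.50 to 9.73 TPM in WT and 2.02 to 6.55 TPM in SMA.

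Trim47 (ENSMUSG00000020773.11; chromosome 11, 116105752 to 116127210, minus strand) had WT values of 0, 1.20 and 0.462 TPM. SMA 1, 2 and 3 held 132, 40.8 and 22.5 TPM. It was at 30.5, 20.4238 and 20.4068 TPM with MW150 and at 24.1, 22.5 and 2.91 TPM with Pifithrin-α. The SMN-C3 libraries, at 9.49, 0.675 and 4.10 TPM, lay below all SMA and MW150 libraries but overlapped Pifithrin-α through Pifithrin-α 3. SMA 1 held more than SMA 2 and SMA 3 together. The difference of SMN-C3 from SMA was -3.50 (interval -5.08 to -1.93) and was not called (limma adjusted p 0.13).

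Most of the Trim47 signal was not assigned to the transcript that codes for the ligase. In SMA, 77.1% of its TPM was assigned to Trim47-206, annotated as a processed transcript with no coding sequence (1503 bases, 4 exons, 116105752 to 116108119). The main coding transcript, Trim47-201, took 5.79%, at 8.65, 0.158 and 2.52 TPM in SMA. Trim47-206 by itself was at 100.3, 31.9 and 18.7 TPM in SMA, 27.1, 16.8 and 16.02 TPM with MW150, 20.1, 18.4 and 1.78 TPM with Pifithrin-α and 7.64, 0.566 and 3.63 TPM with SMN-C3. Trim47-205, another noncoding model, had 10.9% of the gene's TPM in SMA, at 15.7, 4.69 and 0.969 TPM, and was listed at 0 in all SMN-C3 and WT libraries. The model of Trim47-206 covers the 3′ part of the gene, and the printed promoter belongs to the coding transcript farther upstream. Trim65 overlaps the locus on the same strand but stayed between 0.226 and 2.83 TPM in all libraries. Whether the reads stem from Trim47-206 or from 3′ ends of longer transcripts cannot be told apart from TPM.

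**Figure D2:**
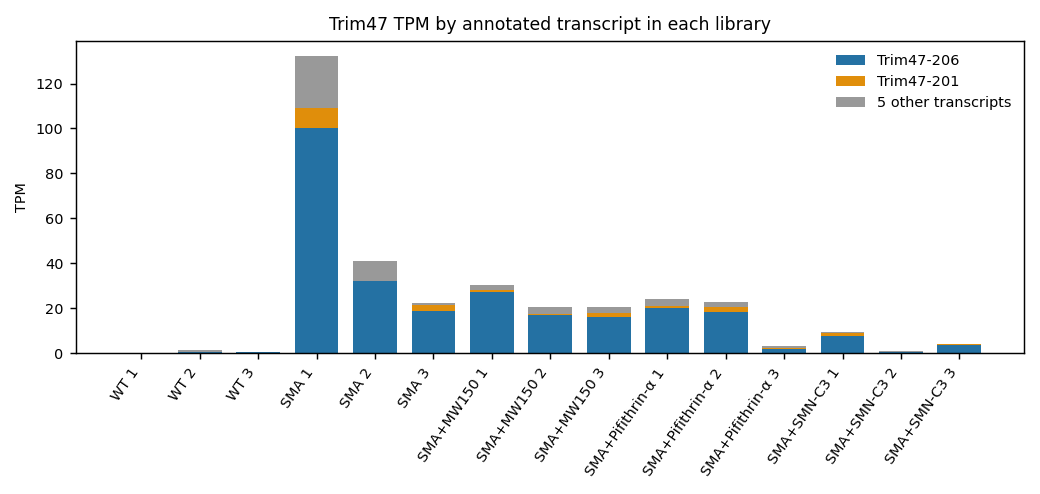
TPM of Trim47 in each of the 15 libraries as stacked bars, split by annotated transcript on a linear axis. Trim47-206 (blue), a noncoding model, carries 77.1% of the gene's TPM in SMA and the coding Trim47-201 (orange) 5.79%.

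Anxa8 (ENSMUSG00000021950.15; chromosome 14, 34085981 to 34100571, plus strand) was the lowest of the set in SMA and the least variable there. In WT it was listed at 0, and SMA libraries held 6.25, 5.50 and 4.01 TPM (5.25 ± 1.14, SD, n = 3). With MW150 it was at 0.0169, 4.29 and 0.880 TPM, and the first of these values is the worth of 1 fragment. With Pifithrin-α it was at 0.481, 1.60 and 0.584 TPM, below all SMA libraries. With SMN-C3 it was at 0.586 TPM in library 1 and listed at 0 in the others. The difference from SMA was -2.41 with SMN-C3 (interval -3.42 to -1.40, limma adjusted p 0.11), -1.76 with Pifithrin-α (0.46) and -1.51 with MW150 (1), none of them called. Anxa8 had the lowest share of its SMA mean under MW150 of the 7 genes (32.9%), a mean that rested on SMA+MW150 2. The other strand holds A630023A22Rik, and strand use in the counting is not given in the sources used here.

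1700007K13Rik (ENSMUSG00000026831.16; chromosome 2, 28462001 to 28466332, minus strand), the gene with p53 half-site matches near its start, was low but not silent in WT, at 6.47, 6.46 and 5.11 TPM. It was the most abundant of the set in SMA, at 180, 95.8 and 67.4 TPM. MW150 libraries held 86.7, 77.8 and 63.4 TPM and overlapped SMA, while Pifithrin-α libraries, at 64.8, 65.7 and 48.3 TPM, lay just below all SMA libraries. SMN-C3 libraries held 14.7, 27.7 and 15.2 TPM, below all libraries of the other Smn-/- groups and above all WT libraries. In SMA 99.5% of its TPM belonged to the coding transcript of 3 exons.

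1700007K13Rik fell by 2.46 with SMN-C3 against SMA (SE 0.34, limma adjusted p 0.0075). The call was lost without SMA 1 (0.066), SMA 2 (0.075), SMA+SMN-C3 1 (0.073) or SMA+SMN-C3 3 (0.086), and with only the 2 groups fitted (0.18). Against MW150 its difference was -1.98 (interval -2.69 to -1.27, limma adjusted p 0.064), and against Pifithrin-α -1.63 (interval -2.34 to -0.92, 0.21). The difference of Pifithrin-α from SMA was -0.82 (interval -1.54 to -0.11, 0.46). Pifithrin-α and MW150 differed by -0.35 (interval -1.06 to 0.37).

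Acaa1b (ENSMUSG00000010651.4; chromosome 9, 119148023 to 119157093, minus strand) had WT values of 0, 0.712 and 0.938 TPM. SMA 1, 2 and 3 held 30.7, 20.99 and 11.3 TPM. It was at 11.6, 16.4 and 9.34 TPM with MW150 and at 8.85, 8.81 and 3.86 TPM with Pifithrin-α, the latter below all SMA and MW150 libraries. SMN-C3 left it at 5.52, 2.60 and 5.07 TPM, still above all WT libraries and overlapping Pifithrin-α. Its share of the SMA mean with SMN-C3, 20.95%, was the highest of the 7 genes. The differences from SMA were -1.97 with SMN-C3 (interval -2.88 to -1.06, limma adjusted p 0.14) and -1.40 with Pifithrin-α (interval -2.31 to -0.48, 0.46). SMN-C3 and Pifithrin-α differed by -0.57 (interval -1.49 to 0.34). Of its 31-base words, 57.4% are shared with its paralog Acaa1a or with Dlec1 on the other strand. Acaa1a was at 15.2 to 89.7 TPM over the libraries and did not follow the pattern, with 23.7 to 78.2 TPM in WT and 56.9 to 74.97 TPM in SMA.

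Over the set, SMN-C3 against SMA gave 4 of 7 genes called lower, where 10 of all tested genes, these 4 among them, were called lower. The libraries of the 2 groups did not overlap for 7 of 7 genes, against 18.2% of tested genes. The choice of the 7 as high in SMA favours both results. Of 16 other genes inside the same bounds in WT and SMA, which are given below, 13 had all SMN-C3 libraries below SMA. Against SMA, Pifithrin-α gave 0 calls by limma (0.00648% of tested genes called lower) and 3 genes with libraries all below SMA, namely Anxa8, 1700007K13Rik and Acaa1b (9.76% of tested genes). At an unadjusted p under 0.05 it gave 6 of the 7, where 10.7% of all tested genes passed. MW150 gave 0 calls by limma (0.00648% of tested genes called lower) and 0 genes with libraries all below SMA (3.41% of tested genes). At an unadjusted p under 0.05 it gave 1 of the 7, where 1.90% of all tested genes passed. The median difference of the 7 genes was -3.31 with SMN-C3, -1.52 with Pifithrin-α and -0.58 with MW150, beside -0.23, -0.22 and 0.06 over all tested genes. Median-of-ratios scaling brought these medians over all genes to -0.0032, -0.023 and -0.014, and the number of the 7 genes called was 4, 0 and 0 as before. Members listed at 0 enter these medians with a difference that depends on the pseudocount.

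**Figure D3:**
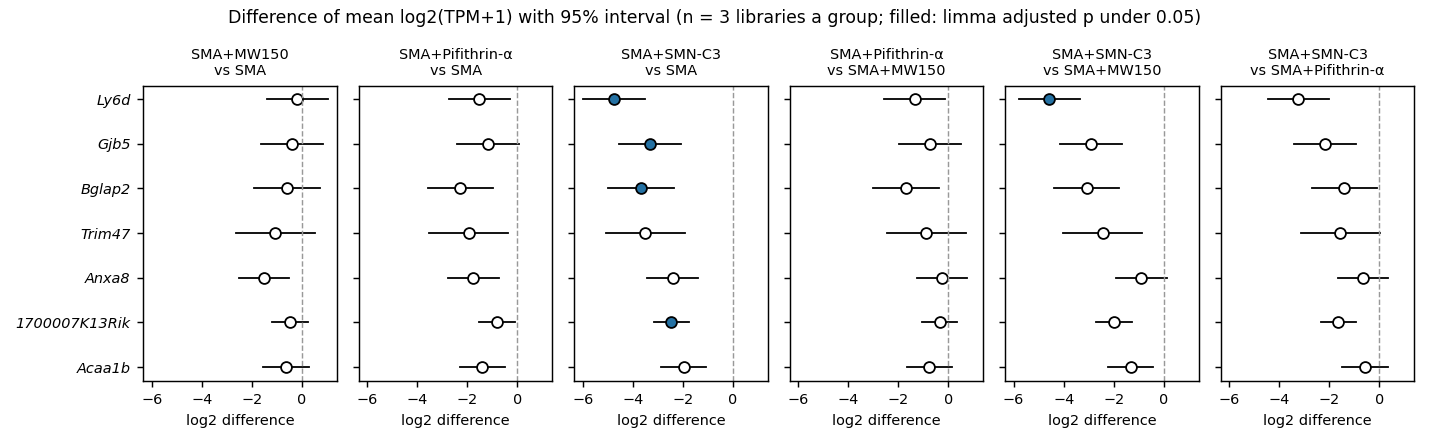
Difference of mean log2(TPM+1) of the 7 genes with its 95% interval in the 6 comparisons, 3 against SMA and 3 between treated groups (3 libraries a group). Filled points are calls at a limma adjusted p under 0.05, of which there are 4 for SMN-C3 against SMA and 1, Ly6d, for SMN-C3 against MW150.

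Between treated groups, 6 of 7 genes had all SMN-C3 libraries below all MW150 libraries, where 27.5% of tested genes did, and the exception was Anxa8. For 3 genes, Ly6d, Bglap2 and 1700007K13Rik, all SMN-C3 libraries lay below all Pifithrin-α libraries (9.83% of tested genes), with 0 called by limma (0% of tested genes) and 4 of the 7 at an unadjusted p under 0.05 (7.15% of tested genes). Another 3, Ly6d, Bglap2 and Acaa1b, had all Pifithrin-α libraries below all MW150 libraries (11.1% of tested genes), with 0 called by limma (0%) and 2 of the 7 at an unadjusted p under 0.05 (8.99% of tested genes). The interval of Pifithrin-α minus MW150 reached from -2.57 to -0.11 for Ly6d and from -2.999 to -0.38 for Bglap2, and included 0 for the other 5. The means fell in the order MW150, Pifithrin-α, SMN-C3 for 7 of 7 genes, also without SMA+Pifithrin-α 3, and for 33.7% of tested genes. With median-of-ratios scaling the order held for 6 of 7 genes, all but 1700007K13Rik, and for 17.9% of tested genes. Apart from Ly6d in SMN-C3 against MW150, limma called 0 differences of the 7 genes between treated groups.

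**Figure D4:**
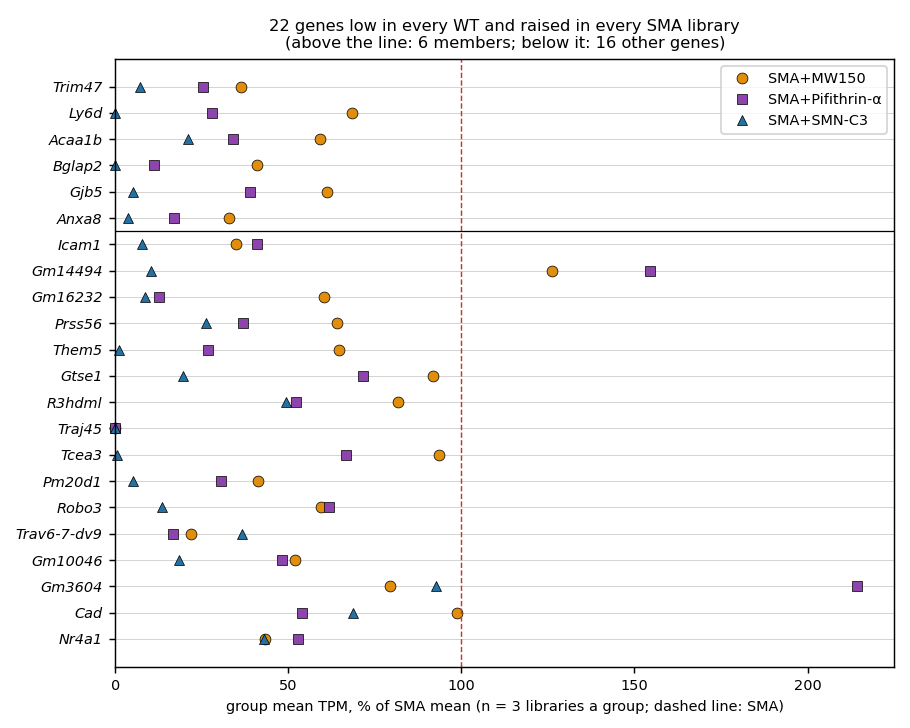
Mean TPM in each treated group as a percent of the SMA mean, for the 6 genes of the set and the 16 other genes inside the same bounds (highest WT library at or under 1.20 TPM, lowest SMA library at or above 2.88 TPM). For the 6 genes the SMN-C3 points lie lowest and between 0% and 20.95%.

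Set against WT, all 7 genes stayed above every WT library in all MW150 libraries (17.9% of tested genes did) and in all Pifithrin-α libraries (4.79%). With SMN-C3, 2 genes did, 1700007K13Rik and Acaa1b (4.03%). Ly6d and Bglap2 were listed at 0 in every WT and every SMN-C3 library. Gjb5 and Anxa8 were above 0 only in SMA+SMN-C3 1 among the 6 libraries of WT and SMN-C3. The WT libraries were used in the choice, so these are values without a test.

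The other 6 genes span the bounds just given, since 1700007K13Rik lies outside them through its WT level. Inside lay 22 genes, the 6 and 16 others, among them Icam1, an adhesion molecule of inflamed endothelium and glia, and Gtse1, a p53 target. Just inside were Bglap2 at 2.88 TPM and Them5 at 2.90 TPM in their lowest SMA library, and Trim47 at 1.20 TPM and Pm20d1 at 1.19 TPM in their highest WT library. Just outside were Rhbdl2, at 2.85 TPM in SMA, and Pros1, at 1.24 TPM in WT. All SMN-C3 libraries lay below SMA for 6 of the 6 and 13 of the 16 others, all Pifithrin-α libraries for 2 and 5, and all MW150 libraries for 0 and 4. The means followed the order MW150, Pifithrin-α, SMN-C3 for 8 of the 16 others. Gm14494 went the other way with MW150 and Pifithrin-α, at means of 18.8 and 23.04 TPM against 14.9 TPM in SMA and 1.56 TPM with SMN-C3.

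The 7 genes varied together over the 12 Smn-/- libraries. The 21 pairwise Pearson correlations of log2(TPM+1) lay between 0.63 and 0.95 (median 0.87), a description that includes the differences between groups and the depth and composition the libraries share. Within groups, SMA 1 was the highest SMA library for 6 of 7 genes and SMA 3 the lowest for 7 of 7. SMA+Pifithrin-α 3, with its high mitochondrial share, was the lowest of its group for 6 of 7. With that share as a term, Pifithrin-α against SMA went from -1.94 to -1.29 for Trim47 and from -1.40 to -0.98 for Acaa1b, and Pifithrin-α against MW150 from -0.88 to -0.30 for Trim47 and from -0.76 to -0.38 for Acaa1b. Without SMA+Pifithrin-α 3 the difference from SMA was -1.06 for Trim47, -0.97 for Ly6d and -0.61 for Gjb5, and that from MW150 was -0.0025 for Trim47, -0.80 for Ly6d and -0.20 for Gjb5. None of these was called in either fit.

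For each gene the 2 tested genes with the highest correlation over those 12 libraries were sought. They were Tcea3 (r = 0.97) and Them5 (0.94) for Ly6d, Ltb4r1 (0.97) and Scn3b (0.96) for Gjb5, and Srbd1 (0.96) and Ptk2b (0.95) for Bglap2. They were Rgs12 (0.98) and Cited4 (0.96) for Trim47, Espn (0.96) and Cited4 (0.95) for Acaa1b, and Ddit4l (0.96) and Plek2 (0.96) for 1700007K13Rik. Anxa8 had looser neighbours, Col6a4 (0.89) and Gm47110 (0.87). Tcea3, the nearest to Ly6d, was at group means of 0.0565 TPM in WT, 7.17 in SMA, 6.71 with MW150, 4.78 with Pifithrin-α and 0.0364 with SMN-C3. Scn3b, a sodium channel subunit of neurons, was well expressed in WT (21.1 TPM) and went to 46.5 TPM in SMA and 18.1 TPM with SMN-C3, so that likeness among Smn-/- libraries did not need silence in WT.

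The families of the 7 genes were examined next. No other connexin (9 tested), annexin (7), Ly6 family gene (16) or gene of peroxisomal fatty acid oxidation (17) was called by limma in SMA against WT or in the 6 comparisons above. Higher in SMA than in WT were 7 connexins, 6 annexins, all 16 Ly6 genes and 15 peroxisomal genes. Of all 15425 tested genes, 10262 were higher. Ly6a, not called, had means of 14.5 TPM in WT, 160 in SMA, 70.5 with MW150, 42.7 with Pifithrin-α and 31.1 with SMN-C3. Its highest library held 357 TPM. The median difference of the 16 Ly6 genes in SMA against WT was 0.51, beside 0.24 for all tested genes. At an unadjusted p under 0.05, SMA against WT gave 1 connexin, 3 annexins, 4 Ly6 genes and 1 peroxisomal gene, where 13.5% of all tested genes passed. SMN-C3 against SMA gave 4, 2, 3 and 0 in the same order, where 8.53% passed. The median differences of these families between SMN-C3 and SMA were -0.82, -0.21, -0.39 and -0.26, against -0.23 for all tested genes. Of 39 tested p53 targets, 10 were called higher in SMA than in WT (0.357% of all tested genes), Aen, Ccng1, Cdkn1a, Fas, Gtse1, Mdm2, Perp, Plk2, Pmaip1 and Polk. Between SMN-C3 and SMA, 0 were called by limma (18 at an unadjusted p under 0.05, against 8.53% of all tested genes). The difference was negative for 38 of the 39, against 73.2% of all tested genes, and the median was -0.72. The median was -0.42 with Pifithrin-α and -0.16 with MW150. The summed TPM of the list was 439 to 862 in WT, 1977 to 3461 in SMA, 1885 to 2468 with MW150, 843 to 2179 with Pifithrin-α and 1248 to 1346 with SMN-C3.

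Markers of the tissues in which the 7 genes are best known were set beside them. Of 23 stratified epithelium markers, 10 were under 1 TPM in every library, and Cdh1 did not exceed 0.0213 TPM. Krt5 reached 0.722 TPM and Trp63 1.23 TPM. Of the 9 tested, 7 were higher and 2 lower in SMA than in WT, where 33.3% of all tested genes were lower. At low levels, the means in WT, SMA and SMN-C3 were 0, 0.704 and 0.0130 TPM for Dsc3. For Itgb4 they were 0.185, 0.701 and 0.00473 TPM. Others of the list were higher with SMN-C3 than in SMA. In the same order, Krt5 had 0, 0.0609 and 0.260 TPM, Trp63 0, 0.0246 and 0.410 TPM, and Col17a1 0.0247, 0.268 and 0.360 TPM. Perp, which is also a p53 target, was called higher in SMA than in WT (7.68 and 65.5 TPM), while the mean of Krt10 was 94.01 TPM in WT, where WT 1 held 192 TPM, against 21.98 TPM in SMA. The summed epithelial markers were 74.996 to 219 TPM in WT and 93.4 to 180 TPM in SMA, osteoblast markers 95.1 to 182 and 58.0 to 198 TPM, hepatocyte markers 3.06 to 27.2 and 5.44 to 16.9 TPM, and B lymphoid markers 2.61 to 9.91 and 6.22 to 12.2 TPM, with overlapping ranges in each case. Sp7, a transcription factor that defines osteoblasts, was above 1 TPM only in SMA 3 (5.84 TPM), where Bglap2 was lowest in SMA, and in SMA+MW150 3 (3.62 TPM). It was listed at 0 in SMA 1, where Bglap2 was highest. Of the 8 tested osteoblast markers, 5 were higher and 3 lower in SMA than in WT, where 33.3% of all tested genes were lower. Spp1, the most abundant of the list, had means of 116 TPM in WT, 73.1 in SMA and 179 with SMN-C3. In the same groups Bglap had 0, 10.3 and 0.220 TPM, Col1a2 1.66, 4.81 and 1.21 TPM, and Alpl 7.30, 9.66 and 5.24 TPM. Alb, which defines hepatocytes, lay between 0 and 5.86 TPM. The 12 microglia markers were at a summed 71.0 to 100.02 TPM in WT, 191 to 224 in SMA, 137 to 195 with MW150, 82.6 to 145 with Pifithrin-α and 99.3 to 132 with SMN-C3. All SMA libraries lay above all WT libraries on this sum, the Pifithrin-α and SMN-C3 libraries lay in between or overlapped WT. Of the 12 markers 1, C1qc, was called higher in SMA than in WT. All 12 had a negative difference from SMA with Pifithrin-α (median -1.27) and with SMN-C3 (-0.89). The 11 oligodendrocyte lineage markers had a median of 0.97 in SMA against WT, 0.16 with MW150 against SMA, -1.44 with Pifithrin-α and -0.76 with SMN-C3. For the 10 astrocyte markers these medians were 0.45, -0.05, -0.73 and -0.84, and for the 5 tested red blood cell genes 0.54, -0.41, -1.16 and -1.08. None of these 3 lists had a call, and all tested genes had medians of 0.24, 0.06, -0.22 and -0.23. The part of these cells in the levels of the 7 genes was not tested.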

How the data were processed

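Per the submitters' processing notes, kallisto 0.44.0, DESeq2 and the build GRCm38.p6 (mm10) were used, with no roles given. Strand use, trimming and the annotation are not given in the sources used here. The authors deposited TPM (relative transcript abundance corrected for length, each library summing to 1000000) per gene and per transcript, with 1 column per library. Of the transcripts, 98.6% matched GENCODE M21, which supplied coordinates. TPM were not rescaled. Genes that reached 1 TPM in 3 or more of 15 libraries were tested as log2(TPM+1) in 1 limma 3.58.1 model (R 4.3.3, moderated variances with a trend, a mean per group), two-sided, with Benjamini-Hochberg adjustment per comparison. The 6 tested comparisons were each treated group against SMA and treated groups against each other. Depth was estimated from steps of 1 fragment in the TPM of 5369 single-transcript genes, and both steps were tested on simulated data. The table holds no counts, so no count model was run. The named genes are the 7, their paralogs and overlapping genes, the 2 most correlated genes of each, genes inside their bounds and called genes of the lists. The genes and lists were chosen with earlier results of these data known. Alternatives were another pseudocount, scaling and filter, fits to 2 groups, a mitochondrial term, array weights, a replicate block, each library left out and, added after the data were seen, Bglap2 summed with Bglap. P-values set a difference against the spread of libraries within groups, pooled over the 5 groups. For Ly6d and Bglap2 all WT and SMN-C3 libraries were listed at 0, so those groups added no spread. For SMN-C3 against SMA the SE was 0.58 for Ly6d and 0.62 for Bglap2. With only the 2 groups fitted it was 0.65 and 0.74. Tables were made with pandas 2.3.3 and figures with matplotlib 3.10.9.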

Additional observations from a re-analysis of the deposited data

Results flagged for a closer look

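Ly6d differed between 2 treated groups that the rule for its choice does not use. It was listed at 0 in the 3 SMA+SMN-C3 libraries and lay between 16.6 and 30.9 TPM in the 3 SMA+MW150 libraries, a difference of -4.58 on the log2(TPM+1) scale (limma adjusted p 0.0083, lower in 3 of 3 libraries). The size depends on the pseudocount and was -7.84 with a pseudocount of 0.1. The p-value rests on a spread pooled over all groups. The WT libraries, which the rule used, were all listed at 0 and added no spread, so the test is not independent of the rule. Over the alternatives other than leaving out 1 library, the limma adjusted p ranged from 6.5e-05 to 0.10. It was 0.11 without SMA+MW150 3, 0.072 without SMA+SMN-C3 1 and 0.075 without SMA+SMN-C3 3.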

How the results depend on the processing

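With 3 libraries a group, wide intervals limit most comparisons, and the count of the 7 genes called by limma moved with the settings. For SMN-C3 against SMA it was 4. It became 3 with a pseudocount of 0.1, 2 with no filter on low values, 2 with a filter at a mean of 5 TPM, 0 with only the 2 groups fitted, and 7 with array weights. For SMN-C3 against MW150 it was 1, and became 0 with no filter, 3 with a pseudocount of 0.1, 4 with only the 2 groups fitted, 4 with the mitochondrial share as a term and 6 with array weights. For SMN-C3 against Pifithrin-α it was 0, and became 1 with a pseudocount of 0.1 and 7 with array weights. Array weights gave 3 for Pifithrin-α against SMA and 1 for Pifithrin-α against MW150, where the count was 0. Array weights raised the calls over all 15425 tested genes as well. They went from 1 to 5155 for Pifithrin-α against SMA and from 10 to 331 for SMN-C3 against SMA, so these gains are not particular to the 7 genes. Leaving out 1 library gave 0 to 4 for SMN-C3 against SMA (0 without SMA 1 or SMA 2, 1 without SMA+SMN-C3 3, 2 without SMA+SMN-C3 1 or 2) and 0 to 1 for SMN-C3 against MW150. The cause was not tested, except that fits with fewer libraries have fewer degrees of freedom.

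The replicate block gave 3 calls for SMN-C3 against MW150 and the same counts as before in the other 5 comparisons. Same-numbered libraries deviated from their group means with correlations of -0.26 to 0.083. These values gave no sign of a pairing by number. They cannot decide whether the numbers mark a litter or a day, which the labels do not say.

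A few differences changed sign, none of them called. For MW150 against SMA, Ly6d was at 0.21 with array weights. With 1 library left out it ranged from -1.02 to 0.35, Gjb5 from -0.89 to 0.16 and Bglap2 from -1.44 to 0.26. For Pifithrin-α against MW150, Anxa8 was at 0.14 with a pseudocount of 0.1, at 0.09 with array weights, and between -0.79 and 0.40 with 1 library left out. Of the other values of single genes under an alternative, 521 kept their direction and side of the threshold, 30 passed it and 28 no longer did.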
